A study of Mus musculus with 49 samples.

Results

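Disease-associated microglia genes are switched on when microglia, the resident macrophages of the brain, meet dying neurons, protein deposits or damaged myelin. The 10 genes described here were Cst7, Clec7a, Itgax, Axl, Spp1, Gpnmb, Lgals3, Cd9, Cd63 and Igf1. They were chosen by symbol, and each has 1 row among the 45252 genes of the count table. All 10 were among the 18220 genes with enough counts to be tested.

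RNA of the neocortex was sequenced in 49 mice, 1 library per mouse. The bigenic rNLS8 mice (NEFH-tTA line 8 crossed to tetO-hTDP-43ΔNLS line 4, on a mixed C57BL/6J and C3H/HeJ background) express human TDP-43 without a nuclear localization signal from a neurofilament heavy chain promoter once doxycycline is withdrawn. The transgene is thus driven in neurons and not in microglia. The monogenic controls carried only the tetO-hTDP43ΔNLS transgene. All mice were injected from 8 weeks of age, 5 times before and 1 time after doxycycline was removed at 25.5 weeks, and were sacrificed at 28.5 weeks, which was 3 weeks after induction. The controls received PBS (ctrl-PBS, 10 females and 7 males). The rNLS8 mice received PBS (TDP-PBS, 4 females and 6 males), a mixture of TDP-43 peptides 10 and 12 (TDP-10+12, 6 females and 4 males) or peptide 15, which carries the disease-specific phosphorylation site (TDP-15, 5 females and 7 males). The vaccines contained 40 µg of ovalbumin-conjugated peptide with CpG oligonucleotide and alum as adjuvants, and the PBS groups were given PBS in place of the conjugates. Monogenic mice with peptides were not analysed here, so vaccination was only compared within rNLS8 mice.

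Between 17775738 and 21033608 reads were counted per mouse (median 19955601), so that 3 counts, the smallest level regarded as detectable, were worth 0.139 to 0.165 CPM (counts scaled to the size of the library). The labelled sex fitted Xist and Ddx3y in all libraries, with Xist at 275 to 603 CPM in females and at most 7.69 CPM in males. The human transgene was not analysed here, and whether its reads entered the counts of mouse Tardbp was not tested. Mouse Tardbp, which encodes endogenous TDP-43, was lower in each rNLS8 group, with medians of 147 CPM in ctrl-PBS, 120.0 CPM in TDP-PBS, 122 CPM in TDP-10+12 and 119 CPM in TDP-15 (log2 fold change -0.30 ± 0.05 (SE), adjusted p = 1.54e-06 in TDP-PBS). In 10 mice, 2 or 3 per group, choroid plexus markers summed to over 100 CPM, up to 1614 CPM in 1 TDP-10+12 mouse, against at most 94.9 CPM in the others. Results that changed without these mice are given as such.

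As background, the transition of microglia into this state is commonly described in steps. Homeostatic receptors are lowered first, and lysosomal and lipid genes rise, and the phagocytic program with Itgax, Clec7a, Cst7, Axl and Spp1 then depends on the receptor Trem2 and its adaptor Tyrobp. Of the members, Clec7a (dectin-1, a receptor for beta-glucans), Itgax (CD11c, an integrin subunit) and Axl (a receptor tyrosine kinase that binds phosphatidylserine through Gas6) sit at the cell surface. Spp1 (osteopontin), Lgals3 (galectin-3) and Igf1 (insulin-like growth factor 1) are secreted. Cst7 (cystatin F) inhibits lysosomal cathepsins, Gpnmb is a glycoprotein of lysosomes and the cell surface, and Cd9 and Cd63 are tetraspanins. Axl, Cd9, Cd63, Spp1 and Igf1 are also expressed by other cells of the brain. In RNA of whole tissue, a change in the number of microglia and a change in RNA per microglial cell cannot be told apart, for increases as for decreases.

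The members lie on 6 chromosomes of GRCm38.p6. According to RefSeq, Cst7 spans chr2:150570415-150578944 on the plus strand, and Itgax chr7:128129526-128150657. Clec7a, at chr6:129461591-129472785 on the minus strand, overlaps the predicted gene Gm45969. Gpnmb lies on the same chromosome at chr6:49036518-49058182, as does Cd9 at chr6:125460266-125494760, which overlaps Gm28809 and Gm26728. The others are Axl at chr7:25756500-25788924, Spp1 at chr5:104435111-104441053, Lgals3 at chr14:47373860-47386167, Cd63 at chr10:128896231-128912822 and Igf1 at chr10:87858265-87937047, which overlaps the antisense gene Igf1os. Whether reads were counted by strand is not given in the sources used here, so reads of these overlapping partners may be included in the values of Clec7a, Cd9 and Igf1.

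Since several members rose together, their promoters were read from RefSeq (250 bases before to 50 after the start, 10 of 10 members matched, the first entry where a gene had several, as for Spp1 and Clec7a). The pattern TGANTCA (N is any base), a loose form of the AP-1 motif, was present in 4 of the 10 promoters and in 7.93% of all 27025. With N in the middle the pattern reads the same on both strands. It stands in capitals in the following sequences, which give the 100 bases before and 30 after the start site of the RefSeq promoter table for these 4 members (for Itgax and Igf1 this site lies inside the gene span given above), because it was the motif found in most members. It occurred in 3 members that rose and in Igf1, which was not called. The middle base was T in Cst7, G in Itgax, C in Gpnmb and A in Igf1.
Cst7, chr2:150570315-150570444, plus strand: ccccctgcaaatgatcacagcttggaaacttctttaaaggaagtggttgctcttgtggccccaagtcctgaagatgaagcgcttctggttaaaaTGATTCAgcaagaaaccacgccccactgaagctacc
Itgax, chr7:128129450-128129579, plus strand: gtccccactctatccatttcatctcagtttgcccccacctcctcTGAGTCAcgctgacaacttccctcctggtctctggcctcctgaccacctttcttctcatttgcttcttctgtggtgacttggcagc
Gpnmb, chr6:49036418-49036547, plus strand: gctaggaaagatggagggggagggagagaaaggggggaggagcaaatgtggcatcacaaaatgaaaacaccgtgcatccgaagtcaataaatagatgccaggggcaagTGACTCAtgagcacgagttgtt
Igf1, chr10:87861011-87861140, plus strand: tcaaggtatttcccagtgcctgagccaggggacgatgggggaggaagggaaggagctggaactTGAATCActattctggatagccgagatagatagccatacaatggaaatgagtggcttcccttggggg
The other 5 motifs were searched on both strands. The PU.1 core GAGGAAGT was found in 1 member, Spp1, and in 3.28% of all promoters, and the TATA motif TATAAA in Clec7a and Spp1 and in 14.2% of all. The E-box CACGTG (7.24% of all promoters), the M-box TCATGTG (3.74%) and the ETS core GGAAGTGA (3.49%), which overlaps the PU.1 core, were found in 0 of the 10 member promoters. The Cd63 window searched, chr10:128909095-128909394, also lies inside the gene span given above, so the start of that span was not searched. A match describes letters in this window and not a bound site.

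The first comparison asked which members differ between rNLS8 mice and monogenic controls. Of the 10 members, 9 rose in TDP-PBS, where 21.9% of all genes tested were called higher. The same 9 rose in TDP-10+12 (20.8% of all genes) and in TDP-15 (23.6% of all genes). Igf1 was the member not called in any group. The median log2 fold change of the 10 members was 1.32 in TDP-PBS, 1.13 in TDP-10+12 and 1.04 in TDP-15, while the median of all genes tested was 0.00 in each comparison. The 3 comparisons share the ctrl-PBS mice and are not independent of each other.

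The steepest increases were in the receptors and the cathepsin inhibitor that microglia of healthy cortex hardly express. Cst7 was at 0 to 0.315 CPM in ctrl-PBS (median 0.0520 CPM), where 15 of 17 mice had 3 counts or fewer. In TDP-PBS it ranged from 0.919 to 7.86 CPM (median 3.17 CPM), in TDP-10+12 from 0.904 to 6.53 CPM (median 2.70 CPM) and in TDP-15 from 0.977 to 6.74 CPM (median 2.82 CPM). No rNLS8 mouse overlapped with any control. The fitted log2 fold change was 5.37 ± 0.40 (SE) in TDP-PBS, 5.06 ± 0.40 in TDP-10+12 and 5.41 ± 0.39 in TDP-15 (adjusted p = 5.07e-16, 6.81e-15 and 9.57e-17). Since the control libraries held only 25 counts in all, the ratio of pooled counts is also given. It was 44.3 (95% counting interval 29.8 to 69.0) in TDP-PBS, 36.2 (24.2 to 56.4) in TDP-10+12 and 45.8 (30.8 to 71.2) in TDP-15, and this interval covers counting error only. By log2 fold change Cst7 ranked 2nd of all genes in TDP-PBS.

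Clec7a was at 0 to 0.461 CPM in ctrl-PBS (median 0.156 CPM) and at 1.21 to 4.64 CPM in TDP-PBS (median 2.43 CPM). The range was 0.502 to 3.02 CPM in TDP-10+12 (median 2.18 CPM) and 0.995 to 6.99 CPM in TDP-15 (median 2.62 CPM). Of the 17 controls, 10 had 3 counts or fewer. All rNLS8 mice were above all controls, although the lowest, mouse 242 of TDP-10+12, was close to the highest control. The log2 fold change was 3.88 ± 0.33 in TDP-PBS, 3.65 ± 0.33 in TDP-10+12 and 4.13 ± 0.32 in TDP-15 (adjusted p = 5.09e-14, 5.93e-13 and 1.26e-15).

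Itgax rose from 0 to 0.800 CPM in ctrl-PBS (median 0.262 CPM) to 1.84 to 6.41 CPM in TDP-PBS (median 3.52 CPM). It was at 1.44 to 4.29 CPM in TDP-10+12 (median 2.35 CPM) and at 1.14 to 22.4 CPM in TDP-15 (median 3.83 CPM). Again the groups did not overlap with the controls. In TDP-15 the highest value belonged to mouse 126, and the next mouse was at 8.82 CPM. The log2 fold change was 3.63 ± 0.38 in TDP-PBS, 3.05 ± 0.39 in TDP-10+12 and 4.15 ± 0.36 in TDP-15 (adjusted p = 2.52e-11, 5.97e-09 and 8.75e-14), and was 3.71 in TDP-15 without mouse 126.

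**Figure D1:**
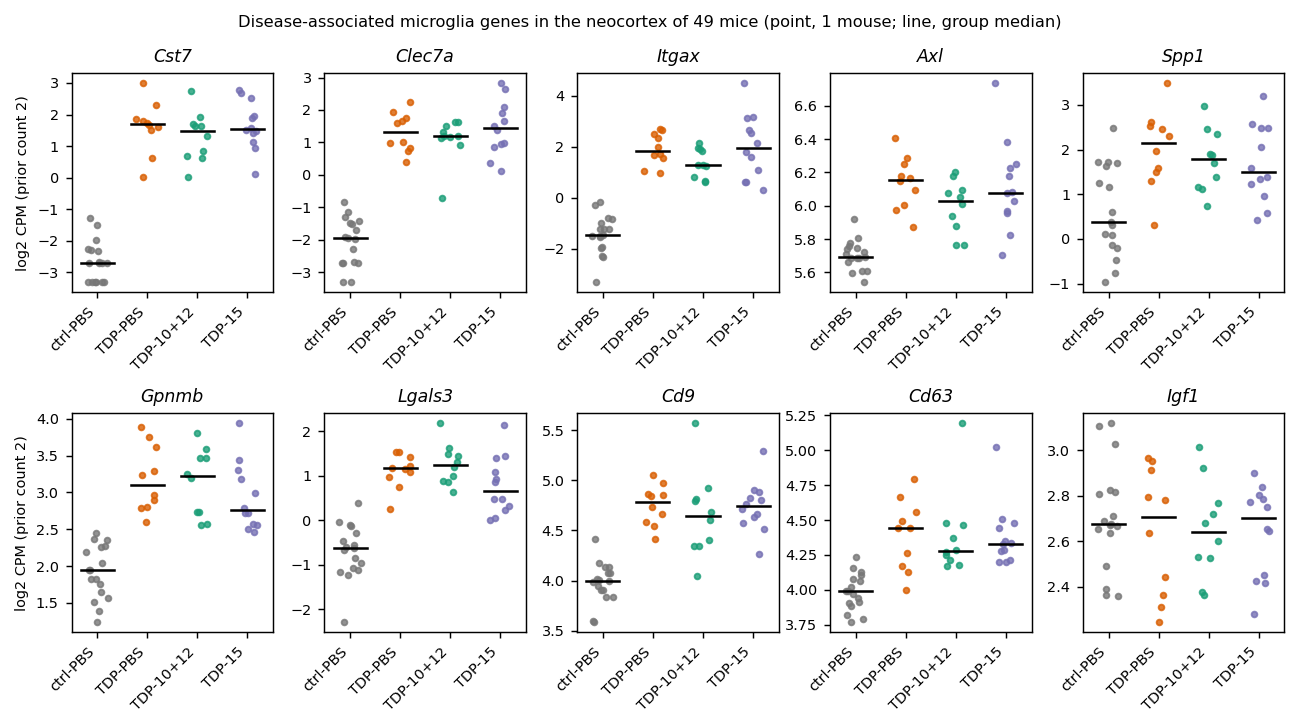
Level of each of the 10 members in every mouse, as log2 CPM with a prior count of 2 (vertical axis, separate scale for each gene) by group (horizontal axis). Points are mice and lines are group medians. All 32 rNLS8 mice lie above all 17 ctrl-PBS mice for Cst7, Clec7a, Itgax and Gpnmb, and some overlap them for Axl, Spp1, Cd9, Cd63 and, in TDP-PBS and TDP-15, Lgals3, and lie within or below the range of the controls for Igf1.

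The third receptor, Axl, was already abundant in controls and rose less. It was at 46.5 to 60.4 CPM in ctrl-PBS (median 51.7 CPM) and at 58.4 to 84.7 CPM in TDP-PBS (median 71.2 CPM). TDP-10+12 mice had 54.3 to 73.6 CPM (median 65.2 CPM) and TDP-15 mice 52.1 to 106 CPM (median 67.5 CPM). The ranges overlapped, with 26 of 32 rNLS8 mice above the highest control. The fold change was 1.36 in TDP-PBS (95% confidence interval 1.23 to 1.49), 1.23 in TDP-10+12 (1.12 to 1.35) and 1.35 in TDP-15 (1.24 to 1.48), with adjusted p = 4.07e-07, 0.000323 and 1.36e-07.

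Gpnmb was at 2.26 to 5.38 CPM in ctrl-PBS (median 3.75 CPM), at 5.98 to 14.8 CPM in TDP-PBS (median 8.53 CPM), at 5.78 to 13.97 CPM in TDP-10+12 (median 9.27 CPM) and at 5.39 to 15.3 CPM in TDP-15 (median 6.67 CPM). It was the fourth member without overlap, but the lowest TDP-15 mouse lay just above the highest control. The fold change was 2.48 (1.97 to 3.13), 2.40 (1.91 to 3.02) and 2.09 (1.68 to 2.61) in the same order of groups (adjusted p = 3.71e-09, 1.10e-08 and 1.75e-07). All 32 rNLS8 mice were above all 17 controls for 4 of the 10 members, compared with 1.16% of all genes tested.

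Among the secreted members, Lgals3 was at 0.103 to 1.21 CPM in ctrl-PBS (median 0.550 CPM). It was at 1.10 to 2.82 CPM in TDP-PBS (median 2.16 CPM), 1.44 to 4.45 CPM in TDP-10+12 (median 2.27 CPM) and 0.908 to 4.31 CPM in TDP-15 (median 1.5003 CPM). Of the rNLS8 mice, 27 of 32 exceeded the highest control, among them all 10 TDP-10+12 mice, and 4 of the 5 others were TDP-15 mice. The log2 fold change was 1.90 ± 0.23 in TDP-PBS, 2.07 ± 0.23 in TDP-10+12 and 1.66 ± 0.22 in TDP-15 (adjusted p = 1.30e-09, 1.04e-10 and 1.51e-08).

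Spp1 varied widely among controls, from 0.411 to 5.46 CPM (median 1.21 CPM). It was at 1.14 to 11.1 CPM in TDP-PBS (median 4.34 CPM), 1.56 to 7.72 CPM in TDP-10+12 (median 3.36 CPM) and 1.24 to 9.09 CPM in TDP-15 (median 2.73 CPM). Only 8 of 32 rNLS8 mice exceeded the highest control. That control, mouse 280, also had the highest sum of olfactory bulb markers of its group (33.9 CPM, group median 0.572 CPM) and was 1 of the 2 controls with choroid plexus markers over 100 CPM. The part of either tissue in the Spp1 value was not tested. The log2 fold change of Spp1 was 1.32 ± 0.33 in TDP-PBS, 0.99 ± 0.34 in TDP-10+12 and 1.01 ± 0.32 in TDP-15 (adjusted p = 0.00102, 0.0152 and 0.00826). Without mouse 301, the highest of its group, the change in TDP-10+12 was 0.82 and no longer passed the test (adjusted p = 0.0551). Without the choroid plexus mice of all groups the changes were 1.49, 1.22 and 1.34.

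Igf1 did not follow the other members. Its levels were 5.03 to 8.58 CPM in ctrl-PBS (median 6.29 CPM), 4.64 to 7.72 CPM in TDP-PBS (median 6.44 CPM), 5.04 to 7.97 CPM in TDP-10+12 (median 6.13 CPM) and 4.76 to 7.36 CPM in TDP-15 (median 6.42 CPM). No rNLS8 mouse was above the highest control. The fold change was 0.960 (0.842 to 1.09) in TDP-PBS, 0.959 (0.842 to 1.09) in TDP-10+12 and 0.953 (0.843 to 1.08) in TDP-15 (adjusted p = 0.641, 0.646 and 0.554). An increase of the size seen for Axl lies outside these intervals, and this holds for the edgeR fit of all mice.

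The tetraspanins rose moderately. Cd9 was at 11.9 to 21.3 CPM in ctrl-PBS (median 15.9 CPM), 21.2 to 33.2 CPM in TDP-PBS (median 27.5 CPM), 16.4 to 47.4 CPM in TDP-10+12 (median 24.9 CPM) and 19.1 to 39.1 CPM in TDP-15 (median 26.6 CPM). Cd63 was at 13.5 to 18.7 CPM in ctrl-PBS (median 15.8 CPM), 15.9 to 27.6 CPM in TDP-PBS (median 21.6 CPM), 17.9 to 36.5 CPM in TDP-10+12 (median 19.3 CPM) and 18.3 to 32.3 CPM in TDP-15 (median 20.0 CPM). Both overlapped with the controls, and 26 and 23 of 32 rNLS8 mice exceeded the highest control. The fold change of Cd9 was 1.71 (1.48 to 1.98), 1.65 (1.43 to 1.91) and 1.70 (1.48 to 1.96) in TDP-PBS, TDP-10+12 and TDP-15 (adjusted p = 2.14e-08, 1.36e-07 and 7.13e-09). That of Cd63 was 1.34 (1.18 to 1.52), 1.35 (1.19 to 1.53) and 1.33 (1.18 to 1.501) (adjusted p = 0.000103, 9.02e-05 and 5.91e-05).

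**Figure D2:**
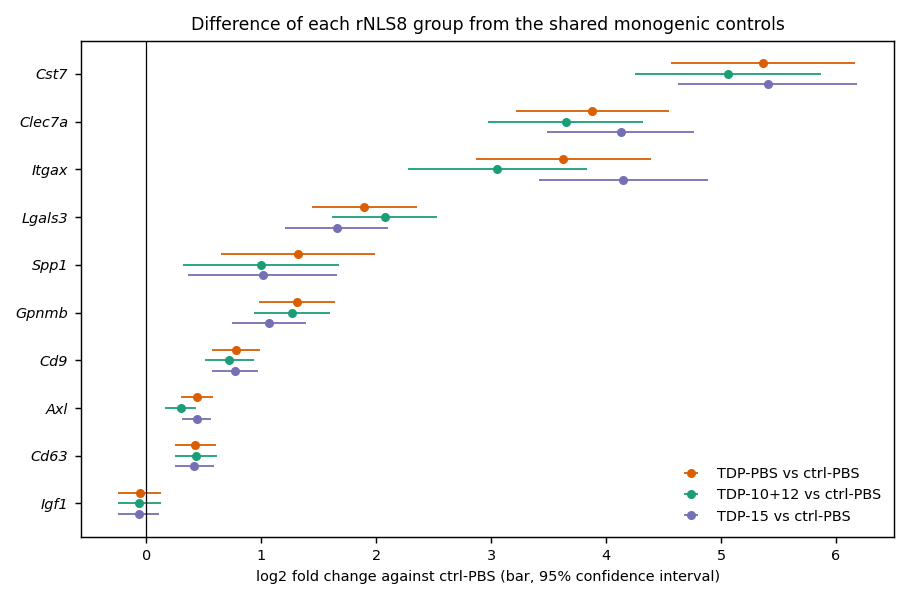
Log2 fold change of each member in the 3 rNLS8 groups against the same 17 ctrl-PBS mice (horizontal axis), with 95% confidence intervals from edgeR. In TDP-PBS the values run from 5.37 for Cst7 to -0.06 for Igf1, and the intervals of Igf1 include 0 in all 3 groups.

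Per length of exons (CPM per kb, GENCODE M21), Cd9, Axl and Cd63 were the most abundant members in every group, with medians of 12.96, 12.1 and 10.9 CPM per kb in ctrl-PBS and 22.4, 16.6 and 14.9 CPM per kb in TDP-PBS. Cst7 moved from the 10th place in ctrl-PBS (0.0528 CPM per kb) to the 4th in TDP-PBS (3.21 CPM per kb), and Igf1 from the 6th (0.635 CPM per kb) to the 10th (0.651 CPM per kb). The members with the highest fold changes thus remained far below Cd9, Axl and Cd63 in level.

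The second comparison asked whether vaccination changed the members within rNLS8 mice. None of the 10 members was called in TDP-10+12 against TDP-PBS, TDP-15 against TDP-PBS or TDP-10+12 against TDP-15, where 0, 0 and 0% of all genes tested were called by edgeR. At an unadjusted p under 0.05 there were 953, 552 and 1244 genes, with 0, 0 and 1 member among them. DESeq2 called 0 genes in each comparison, and limma-voom with quality weights 2, 0 and 0 genes, with 0 members. The 1 member was Itgax, which was lower in TDP-10+12 than in TDP-15 (log2 fold change -1.10 ± 0.35, 95% confidence interval -1.79 to -0.40, unadjusted p = 0.00262, adjusted p = 0.47 by edgeR). Without mouse 126 this difference was -0.65 (adjusted p = 0.83), and over all alternatives it ranged from -1.33 to -0.49 with adjusted p from 0.406 to 0.905.

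For the other members the intervals show which differences the data could hold. For Cst7 the log2 fold change in TDP-10+12 against TDP-PBS was -0.31 (-0.93 to 0.32) and in TDP-15 against TDP-PBS 0.04 (-0.55 to 0.63). For Clec7a the values were -0.23 (-0.83 to 0.36) and 0.25 (-0.32 to 0.81), and for Itgax -0.57 (-1.30 to 0.15) and 0.52 (-0.16 to 1.20). These intervals are wide, and for Itgax in TDP-10+12 against TDP-PBS they correspond to fold changes from 0.407 to 1.11. Spp1 had -0.33 (-1.07 to 0.42) and -0.31 (-1.02 to 0.40), Gpnmb -0.05 (-0.42 to 0.32) and -0.25 (-0.60 to 0.10), and Lgals3 0.18 (-0.30 to 0.65) and -0.24 (-0.70 to 0.22), in the same order. The abundant members were measured more closely, with -0.14 (-0.30 to 0.01) and -0.004 (-0.15 to 0.14) for Axl, -0.05 (-0.29 to 0.18) and -0.01 (-0.24 to 0.22) for Cd9, and 0.01 (-0.20 to 0.21) and -0.01 (-0.20 to 0.18) for Cd63. For Igf1 they were -0.001 (-0.21 to 0.21) and -0.01 (-0.21 to 0.19). Both comparisons share the TDP-PBS mice.

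**Figure D3:**
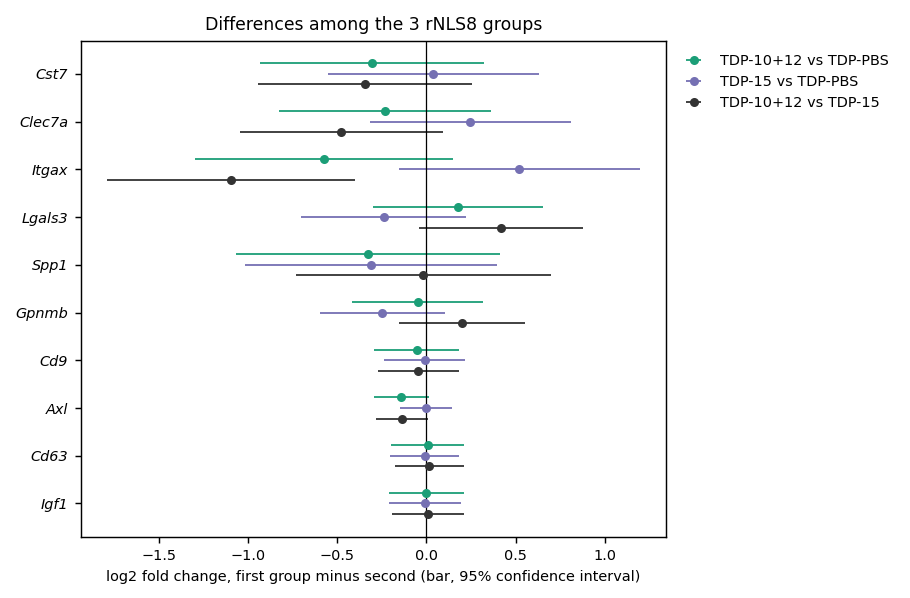
Log2 fold change of each member between the rNLS8 groups (horizontal axis, first group minus second), with 95% confidence intervals from edgeR. The interval of Itgax in TDP-10+12 against TDP-15 (-1.79 to -0.40) is the one that leaves out 0, and 0 members passed the adjusted threshold.

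Sex was compared in the PBS mice, by testing whether the difference between TDP-PBS and ctrl-PBS itself differs between females and males. None of the 10 members was called, and 0% of all genes were called by edgeR (1152 at an unadjusted p under 0.05). At an unadjusted p under 0.05 there were 3 members, each with a smaller change in males. For Cst7 the difference was -2.11 ± 0.85 (unadjusted p = 0.0193, adjusted p = 0.747), but its control means, 0.0418 CPM in females and 0.125 CPM in males, were both under the worth of 3 counts. Its means in TDP-PBS were 4.33 CPM in females and 2.77 CPM in males. The log2 fold change of Itgax was 4.27 ± 0.35 in females and 2.98 ± 0.37 in males (difference -1.29 ± 0.54, unadjusted p = 0.0243, adjusted p = 0.755). Axl had 0.57 ± 0.06 in females and 0.34 ± 0.06 in males (difference -0.23 ± 0.09, unadjusted p = 0.0156, adjusted p = 0.744). In levels, Itgax averaged 5.50 CPM in the 4 female and 2.97 CPM in the 6 male TDP-PBS mice.

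Other genes of the same state and of its surroundings were then set beside the members. Of 30 further disease-associated microglia genes, 28 were tested and 20 were higher and 4 lower in TDP-PBS, with a median log2 fold change of 0.68. In the lower direction 21.6% of all genes were called in TDP-PBS, 20% in TDP-10+12 and 23.2% in TDP-15. The largest increases were in the chemokines Ccl4 (4.398 ± 0.46) and Ccl3 (3.09 ± 0.28) and in Cd22, a sialic acid receptor (2.35 ± 0.35). The smallest values were those of the protease inhibitors Timp2 (-0.36 ± 0.06) and Serpine2 (-0.30 ± 0.05) and of the adhesion molecule Cadm1 (-0.23 ± 0.07). The list also holds genes that other brain cells express at high levels. Counts in TDP-10+12 were 17 higher and 2 lower, and in TDP-15 19 higher and 3 lower.

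Of 28 partners of the members tested, 13 rose and 7 fell in TDP-PBS (median log2 fold change 0.13). The share that fell was near that of all genes, of which 21.6% were called lower. Lgals3bp, the secreted binding protein of galectin-3, rose from a mean of 30.1 CPM in ctrl-PBS to 182 CPM in TDP-PBS (2.60 ± 0.18). Cd44, a receptor of osteopontin, rose by 1.47 ± 0.22, while of the osteopontin-binding integrin subunits Itgav (-0.57 ± 0.06) and Itgb3 (-0.29 ± 0.12) fell and Itgb1 (0.41 ± 0.06) and Itgb5 (0.36 ± 0.07) rose. For the Axl system, the ligand Gas6 had 0.05 ± 0.04 (adjusted p = 0.415), the ligand Pros1 rose by 0.41 ± 0.08, the sister receptor Mertk by 0.26 ± 0.08, and the third receptor Tyro3 fell (-0.34 ± 0.04). Cst7 has cathepsins C and H as targets, and Ctsc (0.79 ± 0.10) and Ctsh (0.94 ± 0.12) rose, as did Itgb2, the beta subunit that pairs with Itgax (0.88 ± 0.12). Card9, which signals downstream of Clec7a, rose by 0.53 ± 0.14, while Syk had 0.12 ± 0.12 (adjusted p = 0.437). Of the tetraspanin partners Cd81 (0.31 ± 0.05) and Cd151 (0.77 ± 0.08) rose, and Ptgfrn, a binding partner of Cd9, fell (-0.52 ± 0.07). The Igf1 receptor Igf1r had 0.08 ± 0.06 (adjusted p = 0.28), and among its binding proteins Igfbp4 (-0.90 ± 0.09) and Igfbp5 (-0.52 ± 0.09) fell. All these log2 values compare TDP-PBS with the controls. In TDP-10+12 11 partners rose and 6 fell, and in TDP-15 14 rose and 6 fell.

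Upstream regulators moved in the same comparison. Of 14 tested, 10 rose and 2 fell, with a median log2 fold change of 0.30. Of all genes tested, 21.9% were called higher and 21.6% lower, so the share of regulators that fell was not above that of all genes. The transcription factors Irf8 (0.92 ± 0.11), Runx1 (0.87 ± 0.165) and Spi1, which encodes PU.1 (0.64 ± 0.12), were highest. Bhlhe40 (-0.45 ± 0.10) and the microglial survival cytokine Il34 (-0.20 ± 0.05) fell, and Mitf had 0.01 ± 0.09 (adjusted p = 0.934). In TDP-10+12 8 rose and 2 fell, and in TDP-15 10 rose and 2 fell.

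Markers that microglia share in all states were also higher. Of the 10 pan-microglia markers 9 rose in TDP-PBS (median log2 fold change 0.82), led by Ctss (1.14 ± 0.13), C1qc (1.11 ± 0.14) and Ptprc (1.07 ± 0.15). The lowest were Cd53 (0.48 ± 0.12), Itgam (0.46 ± 0.08) and Aif1, which encodes Iba1 (0.29 ± 0.12, adjusted p = 0.0514). Their summed level was 216 to 305 CPM in ctrl-PBS, 345 to 559 CPM in TDP-PBS, 235 to 526 CPM in TDP-10+12 and 262 to 788 CPM in TDP-15. In TDP-10+12 and in TDP-15 9 of 10 rose as well. Of all genes tested, 21.9%, 20.8% and 23.6% were called higher in TDP-PBS, TDP-10+12 and TDP-15. Of the 14 homeostatic markers 8 rose and 0 fell in TDP-PBS (median 0.33), with Crybb1 (0.71 ± 0.17) and Tmem119 (0.46 ± 0.08) among the highest. Sall1 (-0.002 ± 0.11), Slc2a5 (-0.03 ± 0.11) and P2ry12 (-0.09 ± 0.06, adjusted p = 0.206) were lowest. P2ry12 passed the test as lower in TDP-10+12 (-0.18, adjusted p = 0.0135) and TDP-15 (-0.15, adjusted p = 0.026), as the 1 homeostatic marker that fell in each, while 5 and 8 rose. The log2 fold changes of Cst7, Clec7a, Itgax, Lgals3, Spp1 and Gpnmb in TDP-PBS were above that of each pan-microglia marker. In TDP-10+12, where the highest marker had 1.04, Spp1 was below it, and in TDP-15, with 1.27, both Spp1 and Gpnmb were below it. Cd9, Axl and Cd63 were within the range of these markers and Igf1 was under it in all 3 groups.

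Markers of other cells were counted in the same way, against 21.9% of all genes called higher and 21.6% called lower in TDP-PBS, so that counts such as 1 of 4 or 2 of 6 are near those of all genes. In TDP-PBS 4 of 6 tested border-associated macrophage markers, 1 of 4 monocyte and neutrophil markers and 2 of 5 fibroblast markers were higher, 3 of 6 neuron markers were lower, and of 6 astrocyte markers 1 was higher and 2 were lower. The higher astrocyte marker was Gfap (1.64 ± 0.18). Of the oligodendrocyte markers 1 of 6 was higher, of the choroid plexus and striatum markers 0 of 3 each were called, and both olfactory bulb markers were called lower. The median olfactory bulb sum was 0.572 CPM in ctrl-PBS and 0.582 CPM in TDP-PBS, with mouse 280 of ctrl-PBS at 33.9 CPM, so the median was not lower. In the vaccinated groups, 2 of 3 choroid plexus markers were higher in TDP-10+12 (Ttr 6.56-fold, adjusted p = 0.0127, and Folr1 4.69-fold, adjusted p = 0.00582), and in TDP-15 Ttr was higher (4.13-fold, adjusted p = 0.0469) and the striatum marker Drd1 lower (0.701-fold, adjusted p = 0.0438). Of 5 fibroblast markers, 3 were higher in TDP-10+12 and 2 in TDP-15. T and NK cell markers summed to at most 1.62 CPM in any mouse, and 0 of 5 had enough counts to be tested. The part of these cells in the values of the members was not tested.

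**Figure D4:**
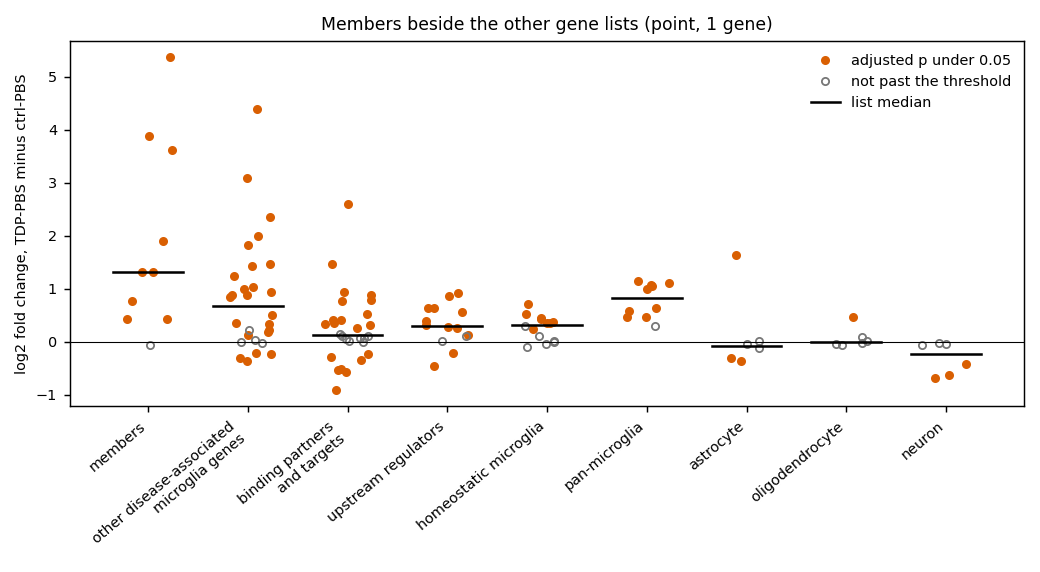
Log2 fold change in TDP-PBS against ctrl-PBS (vertical axis) of each gene tested, by gene list (horizontal axis). Filled points passed an adjusted p of 0.05, open points did not, and lines are list medians. The median is 1.32 for the members, 0.68 for the other disease-associated microglia genes, 0.82 for pan-microglia and 0.33 for homeostatic markers.

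The third question was whether the members vary together among rNLS8 mice. Pearson's r was computed over the 32 rNLS8 mice from log2 CPM after each group's mean was subtracted, and tested by permuting mice within groups. Of the 45 pairs, 44 were positive and 28 passed an adjusted p of 0.05, all of them positive. The smallest r of a called pair was 0.40, which 4.08% of all gene pairs reached. The median r of the member pairs was 0.45. With Spearman's rho 20 pairs passed, all among the 28, and after leaving out the 2 mice farthest from the median of the first gene 20 passed, 19 of them among the 28. Single mice weighed on this count, with 17 pairs called without mouse 126, 23 without mouse 301 and 14 without both.

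The closest pair was Clec7a and Itgax (r = 0.78, rho = 0.77, permutation p = 1e-05, the smallest the resamples can give, adjusted p = 0.00045). Its r was 0.78 without the 2 farthest mice and 0.92, 0.47 and 0.87 within TDP-PBS, TDP-10+12 and TDP-15. Clec7a also followed Cst7 (r = 0.65, rho = 0.63, permutation p = 0.00011 for r and 0.00019 for rho, adjusted p = 0.00117 and 0.00285, r = 0.61 without the 2 farthest mice). The second closest was Cd9 with Cd63 (r = 0.73, rho = 0.57, permutation p = 9e-05 and 0.00118, adjusted p = 0.00117 and 0.00885, r = 0.63 without the 2 farthest mice), at 0.69, 0.76 and 0.77 within the groups. Without mice 126 and 301 its r was 0.43 (adjusted p = 0.043, permutation test), while that of Clec7a and Itgax was 0.82. Axl and Gpnmb were the next pair (r = 0.70, rho = 0.66, permutation p = 4e-05 and 0.00012, adjusted p = 0.0009 and 0.0027), at 0.61 without the 2 farthest mice and 0.61 without mice 126 and 301.

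Some members shared little. Cst7 and Gpnmb, both tied to lysosomes, had r = 0.02 and rho = -0.01 (permutation p = 0.93 and 0.962). Igf1 was called with 1 member, Cd63 (r = 0.43, rho = 0.40, permutation p = 0.0169 and 0.0365, adjusted p = 0.0315 and 0.0685), and that r was 0.29 without the 2 farthest mice (adjusted p = 0.261). Cd63 was called with 8 of the other 9 members, and Gpnmb with 3. With rho, Cd63 was not called with Cst7 (adjusted p = 0.076, permutation test) or Igf1. Without mice 126 and 301, the Cd63 pairs with Cst7, Clec7a, Lgals3 and Igf1 failed (adjusted p = 0.233, 0.107, 0.125 and 0.29, permutation test). Those with Axl, Spp1, Gpnmb and Cd9 still passed (adjusted p = 0.0165, 0.0256, 0.0467 and 0.043, permutation test). The pair of Gpnmb and Lgals3 failed without these mice (adjusted p = 0.107, permutation test).

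**Figure D5:**
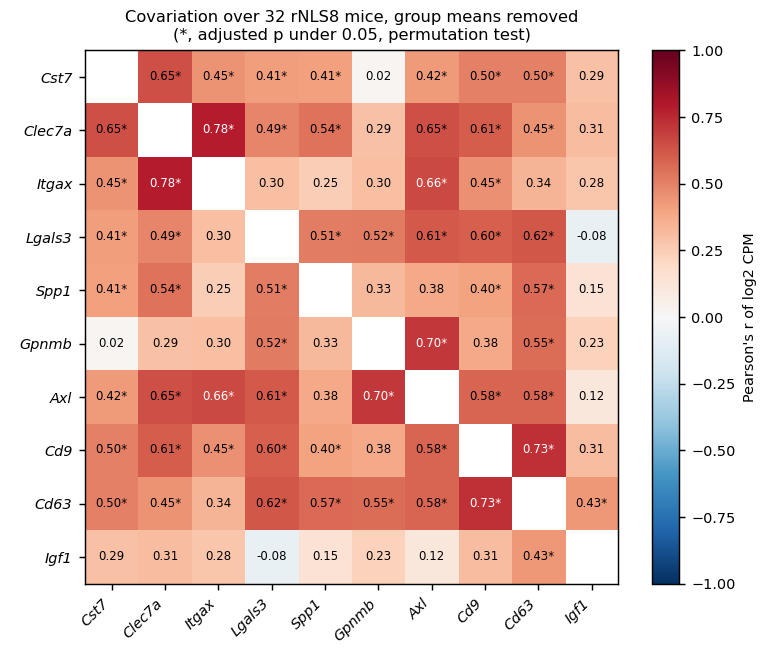
Pearson's r of log2 CPM for each pair of members over 32 rNLS8 mice with group means removed (colour and printed value), with asterisks at an adjusted p under 0.05. Clec7a with Itgax (0.78), Cd9 with Cd63 (0.73) and Axl with Gpnmb (0.70) are the highest, and the row of Igf1 holds 1 asterisk.

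Which genes lay nearest to each member, among 15542 genes with a mean of at least 1 CPM, differed between them. These correlations are given as a description, over the same 32 mice. They are the highest values of a search that was not repeated without mice 126 and 301. Both mice had the highest Cd9 and Cd63 of their groups. Nearest to Cst7 were Tyrobp (r = 0.82), the adaptor of Trem2, the lysosomal protease Ctsd (0.80) and the inhibitory receptor Lair1 (0.72). Clec7a lay nearest to the lysosomal protein Cd68 (0.82), to Cd22 (0.81) and to the integrin Itgb2 (0.81), and Itgax to Lag3 (0.77), Lyz2 (0.76) and Cd68 (0.76). Cd9 and Cd63 had other neighbours. Those of Cd9 were Hspb6 (0.89), Serpina3n (0.88) and Pdlim4 (0.86). Those of Cd63 were Vim (0.87), Gfap (0.87) and Msn (0.85). Of these, Serpina3n, Vim and Gfap are known as genes of reactive astrocytes. With the mice farthest from the median of Cd9 left out, its r fell to 0.80, 0.80 and 0.72, in the same order. With those farthest in Cd63 left out, its r fell to 0.76, 0.76 and 0.62. Which mice were left out is not listed here. Axl was nearest to the cytoskeletal adaptor Tln1 (0.89), to H2-Q4 (0.85) and to Csf1 (0.85), and Gpnmb to Fkbp10 (0.76), Tln1 (0.71) and Usp53 (0.70). For Spp1 they were Anxa3 (0.86), Gm31255 (0.73) and LOC330143 (0.70), for Lgals3 E230029C05Rik (0.80), Zfp36 (0.74) and Tnfrsf1a (0.73), and for Igf1 Hif1an (0.69), Mlec (0.69) and Dcaf12 (0.67). Of the 10 nearest genes, Cd68 was shared by Cst7, Clec7a and Itgax, and Cd9 and Cd63 shared 5, namely Gfap, Msn, Pdlim4, Serpina3n and Vim. H2-Q4 belongs to a family of near-identical genes whose counts are uncertain.

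The members were also set beside summed markers of cell types. Only the members were tested against these sums. The share of all genes that would pass is not known, so the counts below have no background. With the pan-microglia sum, 7 of 10 members were correlated (90 relations between members and 9 marker lists were computed, adjusted over all of them), with r from 0.14 for Igf1 to 0.79 for Axl. For Axl rho was 0.66 (permutation p = 1e-05 and 9e-05, adjusted p = 0.0009 and 0.002), and r was 0.76 without the 2 mice farthest in the marker sum. The 3 others were Spp1 (r = 0.43, adjusted p = 0.0648, permutation test), Gpnmb (r = 0.43, adjusted p = 0.0677, permutation test) and Igf1. With rho, Itgax was not called (adjusted p = 0.0617, permutation test) and Spp1 was (adjusted p = 0.0335, permutation test). With the homeostatic markers the same number, 7, was called (r from 0.11 to 0.72). Spp1, Gpnmb and Cd63 were correlated with the border-associated macrophage markers (r = 0.57, 0.47 and 0.56, adjusted p = 0.00648, 0.0365 and 0.00799, permutation test) and with the fibroblast markers (r = 0.57, 0.54 and 0.59, adjusted p = 0.00799, 0.0119 and 0.00641, permutation test), where 3 of 10 members were called in each list. For these 2 lists, rho and r without the 2 mice farthest in the marker sum are not given here. Mouse 91 had the highest border-associated macrophage and fibroblast sums of TDP-PBS, and mouse 126 the highest fibroblast sum of TDP-15. Single mice may therefore weigh on these r. No member was called with the summed oligodendrocyte, astrocyte, choroid plexus or neuron markers. The astrocyte sum is mostly Slc1a2 (a mean of 1387 CPM in TDP-PBS, against 381 CPM for Gfap), so it does not stand for Gfap, which was near Cd9 and Cd63. Of the members, 1, Igf1, was called with the striatum markers (r = -0.50, rho = -0.50, adjusted p = 0.0292 and 0.0335, permutation test).

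Among single mice, mouse 126 of TDP-15 was the highest of its group for 6 of the 9 members other than Igf1, and mouse 301 of TDP-10+12 also for 6, but was the lowest of its group for Itgax (1.44 CPM). These mice had the highest summed pan-microglia markers of their groups (788 and 526 CPM). Mouse 126 also had the highest fibroblast sum (111 CPM, group median 42.6 CPM) and endothelial sum (209 CPM, group median 158 CPM) of TDP-15, and mouse 301 the highest astrocyte sum of TDP-10+12 (3122 CPM, group median 2263 CPM). The part of these cells in the values of both mice was not tested. Mouse 82 was highest in TDP-PBS for 4 members. At the other end, mouse 242 of TDP-10+12, mouse 184 of TDP-15 and mouse 196 of TDP-PBS were each the lowest of their group for 5 members.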

How the data were processed

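Neocortical RNA (about 30 mg of tissue, 200.0 ng of RNA) was sequenced in 100.0 bp read pairs, and the authors aligned these to GRCm38.p6 and deposited raw counts for each gene, not normalized. The submitters' processing notes name Bowtie, Bowtie2, HISAT, HISAT2, RSEM and mm10 without roles, and the counting step, annotation and strand setting are not given in the sources used here. Misassigned reads of near-identical or overlapping genes would enter the counts. Groups and sexes come from the labels, and each mouse is a separate animal. Within groups no 2 libraries agreed within sampling noise (chi-squared over degrees of freedom of at least 7.24).

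Counts were filtered with filterByExpr (minimum count 10, minimum total 15), and TMM factors and 1 model of all 49 mice came from edgeR 4.0.16 (glmQLFit, glmQLFTest, two-sided) in R 4.3.3, with Benjamini-Hochberg adjustment over all 18220 genes and a threshold of 0.05. Standard errors were derived from the F statistic. CPM use TMM factors, and log2 CPM a prior count of 2. Correlations were tested with 100000 permutations within groups (fewer where the 2 farthest mice were left out) in Python 3.11.15. The steps were tested on simulated data. Alternatives were DESeq2 1.42.0, its size factors, limma 3.58.1, no filter, sex as a covariate, fits of 2 groups and, for pairs, other values and measures. Leaving out mice 126 and 301 or the choroid plexus mice was chosen after seeing the data.

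The members and gene lists were chosen with earlier results of these data known. Named were all members, the 3 highest and 3 lowest genes of each list in TDP-PBS, partners set beside their member and the 3 nearest genes of each member, with Tardbp, Xist and Ddx3y as checks of the labels. 1 gene that this rule names is not reported here. Gfap, Slc1a2, Ttr, Folr1 and Drd1 as markers and Trem2, as background, were named outside this rule, as were genes shared among the 10 nearest, after their values were seen. Other marker lists compared with ctrl-PBS were those of oligodendrocyte precursors (of 3, 2 higher in TDP-10+12 and 0 called in TDP-PBS and TDP-15), endothelial cells (of 5, 1 higher in TDP-PBS, 0 called in TDP-10+12, 1 higher and 2 lower in TDP-15) and mural cells (of 3, 1 lower in each group). Protein sequences were not used here.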

Additional observations from a re-analysis of the deposited data

Results flagged for a closer look

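Levels in the groups of 10 mice were screened for mice that stand apart, over 20 sets of values. The measure was the gap to the next mouse relative to the range (Dixon's ratio at the 95% level). Chance flags about 1 in 20 only for independent, normally distributed values. Members are correlated, so several flags of the same mouse are not separate events. Mouse 301 of TDP-10+12 stood apart for 4 members, namely Cst7 (6.53 CPM, next 3.73 CPM), Lgals3 (4.45 CPM, next 2.99 CPM), Cd9 (47.4 CPM, next 30.2 CPM) and Cd63 (36.5 CPM, next 22.2 CPM). In the same group Clec7a was at 0.502 CPM in mouse 242, with the next mouse at 1.79 CPM. In TDP-PBS, Spp1 was at 11.1 CPM in mouse 91, with the next mouse at 6.09 CPM. Mouse 91 also had the highest sum of border-associated macrophage markers of its group (15.96 CPM, group median 8.89 CPM) and of fibroblast markers (92.7 CPM, group median 42.0 CPM), and of mural and oligodendrocyte precursor markers. The part of these cells in the Spp1 value was not tested. Groups of 12 and 17 mice were not screened in this way.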

How the results depend on the processing

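The count of called members against ctrl-PBS was 9 in each comparison and under the alternatives, except 8 in TDP-10+12 without mouse 301, alone or with mouse 126. Among rNLS8 groups and for the sex interaction it was 0 under every alternative. The count of correlated pairs was 28 and became 17 without mouse 126 and 14 without mice 126 and 301, and was 20 to 30 with other values, measures or the choroid plexus or farthest mice left out, and the cause was not tested. Of the single log2 fold changes, 2 against ctrl-PBS and 23 among rNLS8 groups changed sign, none of them called. Without the choroid plexus mice these were Igf1 in TDP-PBS (0.0137) and TDP-10+12 (0.00172) against ctrl-PBS, Gpnmb in TDP-10+12 against TDP-PBS (0.205) and Axl (0.0403), Cd9 (0.0402) and Cd63 (0.0476) in TDP-15 against TDP-PBS. With limma-voom they were Cd63 (-0.0372) in TDP-10+12 against TDP-PBS, then Cst7 (-0.073), Itgax (-0.0555), Cd63 (0.00239) and Igf1 (0.00447) in TDP-15 against TDP-PBS, and Spp1 (0.133), Cd63 (-0.0396) and Igf1 (-0.00673) in TDP-10+12 against TDP-15. Without a filter it was Igf1 in TDP-10+12 against TDP-PBS (0.000177). Without mouse 301 they were Cd63 in TDP-10+12 against TDP-PBS (-0.113, also without mouse 126) and Cd63 (-0.102) and Igf1 (-0.0355) in TDP-10+12 against TDP-15 (-0.0315 and -0.0182 without both mice). Without mouse 126 they were Cst7 in TDP-15 against TDP-PBS (-0.0704, and -0.0703 without both) and Spp1 (0.0479) and Cd9 (0.0155) in TDP-10+12 against TDP-15. No paired analysis was possible because every mouse is a separate animal and the labels carry no shared replicate numbers. Depth limits Cst7, Clec7a and, less so, Itgax in controls. There 15, 10 and 5 of the 17 libraries, in this order, held 3 counts or fewer. The p-values set a difference or a correlation against the variation between these mice.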
